A study of Homo sapiens with 16 samples.

Results

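The set described here holds 10 genes of acute-phase and NF-kB responses, out of 60676 rows of the gene count table. They are LCN2, SERPINA3, SAA1, C3, CXCL1, CXCL2, CXCL3, CXCL8, NFKBIA and TNFAIP3. All 10 symbols were found in the table once each. They were put together around LCN2 and SERPINA3 because those genes were seen to lie lower with an shRNA against NELFE. Values for that contrast are therefore given as a description, with no test.

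The cells were HCT116, a human colorectal carcinoma line. RNA-seq of poly(A)-selected RNA was made from 8 groups with 2 libraries each, numbered 1 and 2. The shNELFE cells carried an shRNA against NELFE, the RNA-binding subunit of the negative elongation factor that holds RNA polymerase II paused near promoters. The shCTL cells carried a control shRNA. Cells of each kind were given EPZ-5676 with HMBA, HMBA alone, EPZ-5676 alone or DMSO. EPZ-5676 (pinometostat) inhibits the histone H3 lysine methyltransferase DOT1L, and HMBA (hexamethylene bisacetamide) is known to free P-TEFb, a kinase of transcription elongation, and to raise HEXIM1, its inhibitor. The labels give no doses, exposure times or shRNA sequences, and do not say if replicates were separate cultures. The main fits below used 1 library per group, so no spread between replicates enters their p-values. These measure the spread left around additive effects of the shRNA and both compounds. That spread holds departures from additivity and may be technical.

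NF-kB is a family of dimeric transcription factors kept in the cytoplasm by inhibitor proteins such as IkBa, the product of NFKBIA, until cytokine or stress signals trigger its degradation. Among the genes it drives in epithelium are neutrophil-attracting chemokines and its own inhibitors NFKBIA and TNFAIP3, so that the pathway limits itself. Acute-phase genes are known mainly from liver, where interleukin-6 acting through STAT3 and C/EBP factors raises them together with NF-kB, but colon epithelium makes LCN2, SERPINA3, SAA1 and C3 too in inflammation.

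Promoter sequences of 8 of the 10 genes were found in RefSeq (build GRCh38.p14), each running from 250 bases before the annotated start to 50 after it. They are shown for the chemokines CXCL1, CXCL2 and CXCL3, whose promoters are alike, for the inhibitor NFKBIA, which carries the same 10 letters on the other strand, and for LCN2 and SERPINA3, around which the set was built. Capitals mark matches to the 10-letter NF-kB consensus, searched on both strands, and in CXCL1, CXCL2 and CXCL3 they cover 2 overlapping matches. Each is written on the strand of its gene, in the order CXCL1 at chr4:73869143-73869442 (+), CXCL2 at chr4:74099146-74099445 (-), CXCL3 at chr4:74038640-74038939 (-), NFKBIA at chr14:35404700-35404999 (-), LCN2 at chr9:128149203-128149502 (+) and SERPINA3 at chr14:94612141-94612440 (+).
CXCL1: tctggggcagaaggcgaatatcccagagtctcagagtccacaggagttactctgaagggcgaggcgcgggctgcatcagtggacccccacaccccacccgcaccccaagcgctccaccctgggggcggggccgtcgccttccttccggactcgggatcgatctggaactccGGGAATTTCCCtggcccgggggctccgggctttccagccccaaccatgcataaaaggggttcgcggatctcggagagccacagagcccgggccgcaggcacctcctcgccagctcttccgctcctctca
CXCL2: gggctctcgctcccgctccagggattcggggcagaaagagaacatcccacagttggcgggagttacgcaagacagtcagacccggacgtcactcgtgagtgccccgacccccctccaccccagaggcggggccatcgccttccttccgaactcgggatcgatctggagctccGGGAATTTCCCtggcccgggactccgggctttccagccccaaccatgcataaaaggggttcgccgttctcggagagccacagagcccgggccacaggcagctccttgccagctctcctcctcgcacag
CXCL3: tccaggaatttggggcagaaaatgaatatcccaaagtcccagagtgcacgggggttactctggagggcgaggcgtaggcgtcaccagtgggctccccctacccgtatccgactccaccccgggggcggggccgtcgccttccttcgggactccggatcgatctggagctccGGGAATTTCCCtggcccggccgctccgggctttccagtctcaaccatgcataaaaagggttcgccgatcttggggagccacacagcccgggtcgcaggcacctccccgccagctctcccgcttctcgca
NFKBIA: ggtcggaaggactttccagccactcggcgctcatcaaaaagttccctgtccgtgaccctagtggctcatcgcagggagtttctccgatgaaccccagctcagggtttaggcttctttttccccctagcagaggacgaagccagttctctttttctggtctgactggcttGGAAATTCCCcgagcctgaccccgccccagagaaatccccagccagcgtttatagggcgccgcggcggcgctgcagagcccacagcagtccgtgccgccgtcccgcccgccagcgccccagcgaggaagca
LCN2: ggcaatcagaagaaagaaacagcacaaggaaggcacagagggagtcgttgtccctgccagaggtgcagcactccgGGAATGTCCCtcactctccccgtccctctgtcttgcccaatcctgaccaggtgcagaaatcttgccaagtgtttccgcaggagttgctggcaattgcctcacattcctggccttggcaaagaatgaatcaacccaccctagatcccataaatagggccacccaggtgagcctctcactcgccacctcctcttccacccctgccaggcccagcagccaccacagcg
SERPINA3: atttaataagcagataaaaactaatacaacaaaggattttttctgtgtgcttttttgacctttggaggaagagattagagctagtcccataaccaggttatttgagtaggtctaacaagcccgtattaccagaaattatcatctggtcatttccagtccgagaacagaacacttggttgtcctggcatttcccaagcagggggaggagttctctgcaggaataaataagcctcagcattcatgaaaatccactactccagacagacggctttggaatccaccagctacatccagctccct

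The NF-kB consensus was found in 6 of these 8 promoters and in 11.3% of all 35116 promoters of the same length. The match that most of them share, GGGAATTTCC on either strand, was found in 4 of the 8 (CXCL1, CXCL2, CXCL3 and NFKBIA) and in 0.145% of all promoters. These letters were picked as the most shared among the same 8, and the promoters of CXCL1, CXCL2 and CXCL3 are alike. Nothing is therefore read from the distance between these shares. Counted from the annotated start, the match begins at -79 in CXCL1, -78 in CXCL2, -79 in CXCL3 and -81 in NFKBIA, where it reads GGAAATTCCC on the strand of the gene. LCN2 holds GGAATGTCCC at -175, and TNFAIP3 holds GGAAAGTCCC at -67 and GGAAATCCCC at -55. The LCN2 window follows the RefSeq start and lies wholly inside the GENCODE span of the gene (128149071 to 128153455). The position of its match before the start thus holds for RefSeq only. The windows of SERPINA3 and CXCL8 held no match to these letters. The aligned promoters of CXCL1 and CXCL3 were 82.5% identical, against 72.1% for CXCL1 and CXCL2, 73.8% for CXCL2 and CXCL3, and 42.6% for CXCL1 and CXCL8. The longest open reading frames of CXCL1, CXCL2 and CXCL3 were 90.7% to 94.4% identical, and those of SAA1 and its neighbour SAA2 97.0%, so the authors' counting could have split reads between these near-identical genes and their counts are uncertain.

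Levels are counts scaled to library size (CPM) on library totals scaled by TMM, and unless stated otherwise they cover the 9 libraries that the choice of the set used, the 8 numbered 2 and shNELFE with both compounds replicate 1. Their totals ran from 13428893 to 17867037 counts, so that 3 counts, the most that a count of 0 allows, stood for 0.168 to 0.223 CPM. Floors and intervals cover counting error only. NELFE averaged 18.1 ± 2.83 CPM in shNELFE and 74.4 ± 5.80 CPM in shCTL (SD, n = 4 libraries numbered 2 each), and HEXIM1 ran from 337 to 385 CPM with HMBA and from 66.8 to 81.7 CPM without it. The 7 other libraries numbered 1 stood apart: their log2 CPM correlated with those of the 9 at Pearson r of 0.869 to 0.903, against 0.965 to 0.992 among the 8 numbered 2. In these 7, NELFE stood at 81.1 to 146 CPM in the 3 libraries labelled shNELFE, above every shCTL library numbered 2 (67.2 to 78.6 CPM) on totals scaled over all 16, and HEXIM1 at 46.5 to 76.0 CPM in the 3 labelled with HMBA. Beside the libraries numbered 2, these levels go against the labels of 5 of the 7, and the 7 are described apart. The shCTL libraries among the 7, however, held NELFE at 99.5 to 279 CPM. Each shNELFE library among them lay below the shCTL library of its treatment: 146 against 244 CPM with DMSO, 92.9 against 99.5 with EPZ-5676 and 81.1 against 133 with HMBA. Of 11 colon epithelium markers 8 averaged above 1 CPM. So did 2 of 11 myeloid, 2 of 8 fibroblast and 2 of 6 endothelial markers, and 0 of 8 lymphoid and 0 of 8 hepatocyte markers. Of the lymphoid markers 5 (CD3E, CD3D, CD2, MS4A1 and NKG7) had 0 counts in all 9 libraries, and of the myeloid, fibroblast, endothelial and hepatocyte markers 1 each.

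In these colon carcinoma cells the 10 genes spanned levels from undetected to moderate. Per kilobase of exon, the median over the 9 libraries was 11.4 CPM for NFKBIA, 2.20 for LCN2, 1.29 for TNFAIP3, 0.510 for CXCL8, 0.310 for SERPINA3, 0.124 for CXCL1, 0.0865 for CXCL3, 0.0536 for CXCL2, 0.0496 for C3 and 0 for SAA1. NFKBIA lay above LCN2 in every library (7.50 to 14.3 CPM per kilobase, against 0.784 to 5.54), and TNFAIP3 (0.968 to 1.79) above CXCL8 (0.212 to 0.817). LCN2 overlapped TNFAIP3, CXCL8 overlapped SERPINA3, SERPINA3 overlapped CXCL1, and the 4 genes from CXCL1 down to C3 overlapped each other, so those neighbours in the order were not separated by the spread between libraries.

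**Figure D1:**
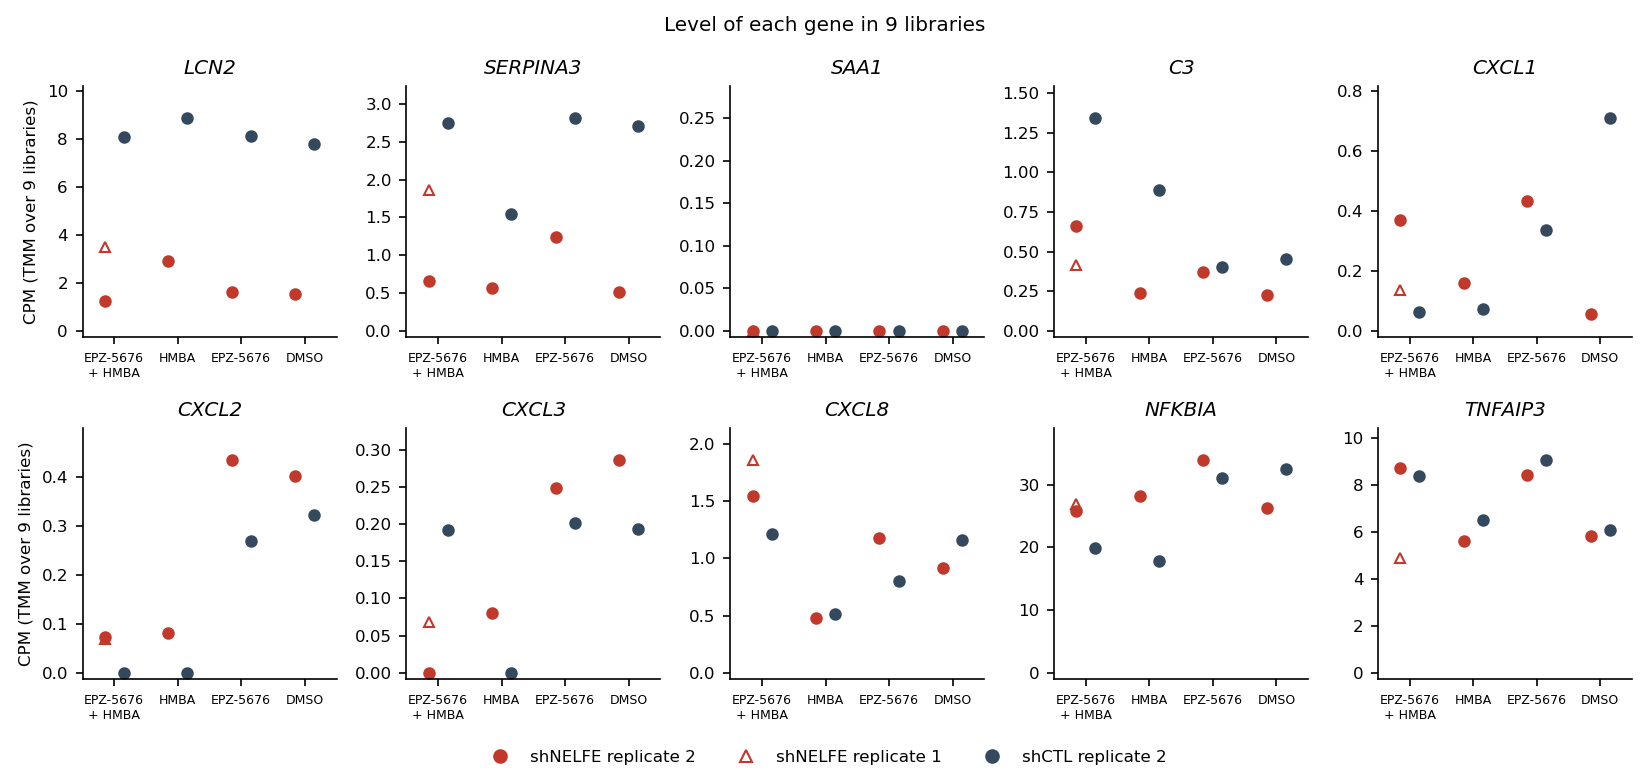
Level of each of the 10 genes in CPM (vertical axis, linear, TMM-scaled over 9 libraries) by treatment (horizontal axis), with 1 point per library and no averaging. LCN2 lies at 1.25 to 3.51 CPM in the 5 shNELFE libraries and at 7.80 to 8.86 CPM in the 4 shCTL libraries, CXCL2 is at 0.0804 CPM or less wherever HMBA was given, and TNFAIP3 in the libraries numbered 2 is at 8.38 to 9.05 CPM with EPZ-5676 and at 5.63 to 6.50 CPM without it.

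Of the acute-phase genes, LCN2 (ENSG00000148346, hg38 chromosome 9, 128149071 to 128153455, plus strand) and SERPINA3 (ENSG00000196136, chromosome 14, 94612377 to 94624055, plus strand) were low in shNELFE, which is why they lead the set. LCN2 encodes lipocalin 2, a secreted protein that withholds iron from bacteria by binding their siderophores. It stood at 1.25 CPM with both compounds, 2.89 with HMBA, 1.61 with EPZ-5676 and 1.54 with DMSO in the shNELFE libraries numbered 2, against 8.06, 8.86, 8.11 and 7.80 CPM in the shCTL libraries of the same 4 treatments. All shNELFE libraries lay below all shCTL libraries, as for 2.70% of all 14808 genes tested, and the shCTL values were close to each other whatever the treatment. The shNELFE level was 15.5% of the shCTL level with both compounds, 32.7% with HMBA, 19.9% with EPZ-5676 and 19.8% with DMSO.

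The other shNELFE library, replicate 1 with both compounds, held LCN2 at 3.51 CPM, 2.80 times its replicate 2 and still below every shCTL library. Its mean over the libraries numbered 2 was 1.83 ± 0.729 CPM in shNELFE and 8.21 ± 0.456 CPM in shCTL (SD, n = 4 each), from 106 counts in shNELFE and 488 in shCTL. The fitted log2 difference was -2.19 (SE 0.19) in the 8 libraries and -1.97 in the 9.

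SERPINA3 encodes alpha-1-antichymotrypsin, an inhibitor of the neutrophil protease cathepsin G. It stood at 0.663 CPM with both compounds, 0.563 with HMBA, 1.24 with EPZ-5676 and 0.515 with DMSO in shNELFE, against 2.75, 1.55, 2.82 and 2.71 CPM in shCTL. The 4 shNELFE libraries numbered 2 lay below the 4 shCTL libraries, as for 2.70% of all genes tested. However, shNELFE with both compounds replicate 1, at 1.86 CPM, lay above shCTL with HMBA. The mean was 0.745 ± 0.335 CPM in shNELFE and 2.46 ± 0.605 CPM in shCTL (SD, n = 4 each), from 45 counts in shNELFE and 148 in shCTL. The fitted log2 difference was -1.74 (SE 0.27) in the 8 libraries and -1.42 (SE 0.32) in the 9. SERPINA3 reached the filter on low counts, about 10 counts in at least 2 libraries, through shCTL libraries alone. The shCTL libraries had 21 to 43 counts and the shNELFE libraries 7 to 20, so it had to differ to be fitted.

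C3, SAA1 and the NF-kB genes did not share these values. C3 (ENSG00000125730, chromosome 19, 6677704 to 6730562, minus strand), the central protein of the complement cascade, had 22 counts in the 4 shNELFE libraries and 46 in the 4 shCTL libraries, with a fitted log2 difference of -0.97 (SE 0.40). Like SERPINA3, C3 reached the filter through shCTL libraries alone. Its shNELFE level was 49.3%, 27.2%, 92.4% and 50.7% of the shCTL level with both compounds, HMBA, EPZ-5676 and DMSO, so that the libraries overlapped. SAA1 (ENSG00000173432, chromosome 11, 18266174 to 18269977, plus strand), serum amyloid A, had 0 counts in all 9 libraries. The log2 difference was 0.13 (SE 0.35) for CXCL8, 0.20 (SE 0.12) for NFKBIA and -0.07 (SE 0.12) for TNFAIP3. Over 4 libraries each, CXCL1 had 15 counts in shNELFE and 18 in shCTL, CXCL2 had 16 in shNELFE and 9 in shCTL, and CXCL3 had 10 in shNELFE and 9 in shCTL.

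As background to these values, 13.1% of the 14808 genes tested passed an adjusted p of 0.05 for shNELFE in edgeR's quasi-likelihood test (5.62% higher, 7.48% lower), and 0.182% of them, 27 genes, had a log2 difference at or below that of SERPINA3. Nothing is read from this for the 10 genes, since the contrast chose them. In bulk RNA, fewer cells that make a transcript and less of it per cell cannot be told apart.

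Over the 9 libraries, log2 CPM of LCN2 and SERPINA3 correlated at r = 0.82, as a description of libraries that share the shRNA contrast. The genes whose log2 CPM was most like that of LCN2 were PTPRU, a receptor tyrosine phosphatase (r = 0.98), S100A14, an S100 calcium-binding protein (0.97), HKDC1, a hexokinase-domain protein (0.97), PROM2, a prominin (0.96), and C1orf210 (0.96). PTPRU ran from 27.9 to 42.8 CPM in shNELFE and from 58.6 to 76.4 CPM in shCTL, and S100A14 from 156 to 229 CPM in shNELFE and from 254 to 289 CPM in shCTL. For SERPINA3 they included DEXI (0.94), the tetraspanin TSPAN18 (0.94), the interferon-induced OASL (0.93) and the galactosyltransferase B4GALT1 (0.93). OASL ran from 2.65 to 5.65 CPM in shNELFE and from 5.61 to 11.9 CPM in shCTL.

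Other genes of these pathways were looked up for the same contrast in lists of known members, beside the 13.1% of all genes that passed (5.62% higher, 7.48% lower). The counts per list are small, and nothing is read from their distance to these shares. Among complement genes, 0 of 15 tested were higher and 2 lower in shNELFE, while 4175 of all genes had an unadjusted p under 0.05 in edgeR. Factor B (CFB), the protease of the alternative complement pathway that pairs with C3, had 0.589, 0.402, 0.248 and 0.400 CPM in shNELFE with both compounds, HMBA, EPZ-5676 and DMSO, against 1.92, 2.44, 1.61 and 1.29 CPM in shCTL. No shNELFE library, replicate 1 with both compounds at 0.482 CPM included, reached any shCTL library. Among all 14808 genes tested, 2.70% had all shNELFE libraries numbered 2 below all shCTL libraries. CFB fell by 2.11 on the log2 scale (SE 0.31, edgeR adjusted p = 0.000849), and in the 9 libraries by 2.11 as well (adjusted p = 0.00447). CFB, IL1RN and SLPI reached the filter on low counts, which asks for about 10 counts in at least 2 libraries, through shCTL libraries alone. They thus had to differ to be tested, and nothing is read from their calls. Of the 12 complement genes that reached it in libraries of both shRNAs, 0 were higher and 1 lower. Without the filter the edgeR adjusted p was 2.75e-08 for CFB, 1.00e-06 for IL1RN and 0.0127 for SLPI. That fit called 1077 genes for EPZ-5676 in place of 563, so its p-values are not comparable with those above and add no support.

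Among upstream cytokines and receptors, 0 of 18 tested genes were higher and 4 lower in shNELFE, against 5.62% and 7.48% of all genes. Of the 15 that reached the filter in libraries of both shRNAs, 0 were higher and 3 lower. The interleukin-1 receptor antagonist IL1RN fell by 1.81 (SE 0.33, edgeR adjusted p = 0.00353), with 0.523 ± 0.222 CPM in shNELFE and 1.82 ± 0.760 CPM in shCTL (SD, n = 4 each). The TNF receptor TNFRSF1A fell by 0.40 (SE 0.09, edgeR adjusted p = 0.00878), a call not kept in the 9 libraries. Of the epithelial antimicrobial genes only the protease inhibitor SLPI was expressed enough to be tested, and it fell by 1.70 (SE 0.43, edgeR adjusted p = 0.0210) with 0.255 ± 0.207 CPM in shNELFE and 0.818 ± 0.551 CPM in shCTL (SD, n = 4 each). That call held in 3 of the 8 fits that left out 1 library (adjusted p of 0.0240 to 0.0938).

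STAT3, the transcription factor downstream of interleukin-6, was abundant enough for close estimates. It stood at 71.9, 79.1, 66.4 and 52.3 CPM in shNELFE with both compounds, HMBA, EPZ-5676 and DMSO, against 137, 129, 101 and 97.0 CPM in shCTL, and at 59.8 CPM in shNELFE with both compounds replicate 1. The shNELFE and shCTL values did not overlap. In the libraries numbered 2, all shNELFE lay below all shCTL for 2.70% of all 14808 genes tested. STAT3 was named for the smallest shNELFE p of its list. STAT3 fell by 0.78 (SE 0.07, edgeR adjusted p = 3.39e-05) in the 8 libraries and by 0.84 (SE 0.11, adjusted p = 0.00435) in the 9. With CEBPA (log2 difference -0.66, SE 0.13, adjusted p = 0.00620, not passed in the 9 libraries) it made up the 2 of 13 STAT3 and C/EBP regulators that were lower, and 0 were higher.

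In the remaining lists, beside the same 13.1% of all genes, NF-kB subunits, kinases and regulators held the most genes tested. Of these 1 of 45 was higher and 3 were lower in shNELFE, with a median log2 difference of -0.10, against 0.0057 over all genes. MALT1, a paracaspase that helps activate IkB kinase, rose by 0.43 (edgeR adjusted p = 0.00946) and RBCK1, a subunit of the linear ubiquitin ligase, fell by 0.41 (adjusted p = 0.00352). Of other NF-kB responsive genes 0 of 16 tested were higher and 2 lower, the protease gene PLAU by -0.60 and the cytokine gene LIF by -0.44. Of other acute-phase genes 5 of 25 were expressed enough to be tested, of which 1 was lower, SERPINA1 (alpha-1-antitrypsin) by -0.90 (SE 0.16, edgeR adjusted p = 0.00322). In the 9 libraries SERPINA1 did not pass (adjusted p = 0.0778), and replicate 1 of shNELFE with both compounds stood at 5.78 CPM, above 3 of the 4 shCTL libraries. Of the 12 genes named by rule from these lists for shNELFE, 4 passed in the 9 libraries: IL1RN, CFB, STAT3 and SLPI. Of these, IL1RN, CFB and SLPI had reached the filter in the 8 libraries through shCTL libraries alone.

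**Figure D2:**
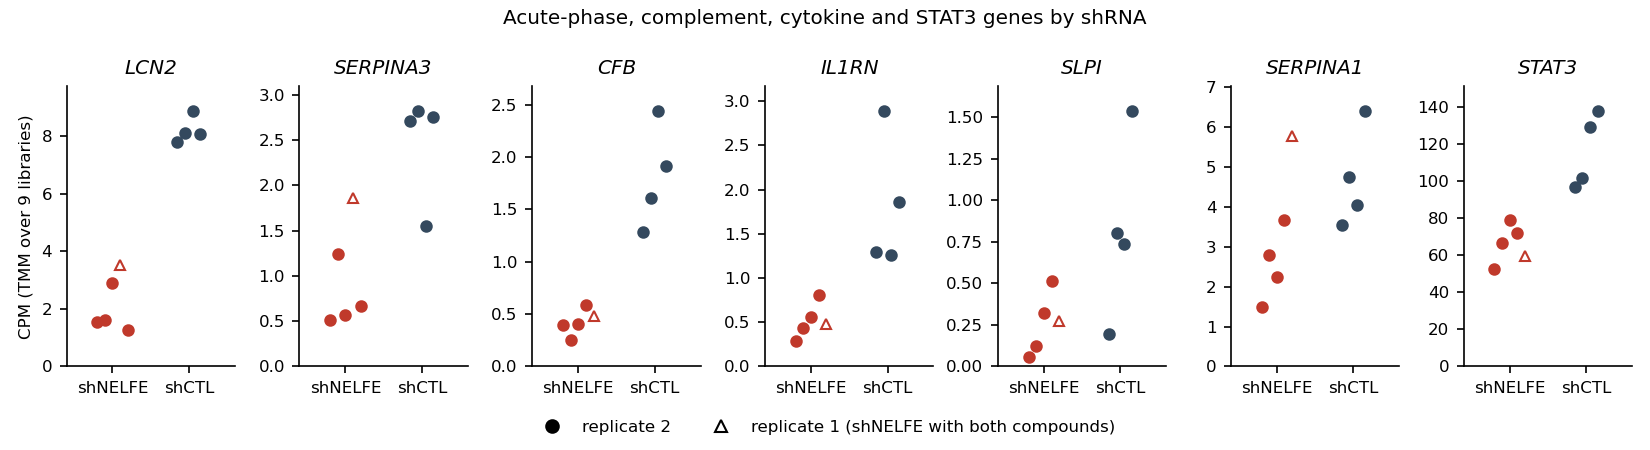
Level in CPM (vertical axis, linear, TMM-scaled over 9 libraries) of LCN2, SERPINA3 and 5 related genes in shNELFE and shCTL libraries, with 1 point per library. CFB (0.248 to 0.589 CPM in shNELFE and 1.29 to 2.44 CPM in shCTL) and STAT3 (52.3 to 79.1 CPM in shNELFE and 97.0 to 137 CPM in shCTL) do not overlap, while the open triangle of SERPINA1 lies at 5.78 CPM among the shCTL points. In the libraries numbered 2, all shNELFE lay below all shCTL for 2.70% of all 14808 genes tested.

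HMBA, which was not used to choose the set, lowered NFKBIA among the 10 genes, and CXCL2 had fewer counts with it. In a fit of the 8 libraries numbered 2, with the shRNA and both compounds as additive terms, 6 of the 10 passed the filter on low counts: LCN2, SERPINA3, C3, CXCL8, NFKBIA and TNFAIP3. Of these, 1 (C3) was higher and 1 (NFKBIA) lower with HMBA at an adjusted p of 0.05, while 70.5% of all 14808 genes tested passed (34.9% higher, 35.7% lower). Whether 2 of 6 differs from that share was not tested, and C3 reached the filter through libraries with HMBA alone, so that 1 of the 5 genes that reached it on both sides (in libraries with and in libraries without HMBA) passed. The median log2 difference of the 6 was -0.07, against 0.0069 over all genes.

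NFKBIA (ENSG00000100906, chromosome 14, 35401511 to 35404749, minus strand), the inhibitor IkBa, was lower with HMBA in 3 of 4 pairs of libraries that differ in HMBA alone. In shCTL it stood at 19.9 CPM with both compounds and 17.8 with HMBA, against 31.0 with EPZ-5676 and 32.5 with DMSO. In shNELFE it stood at 25.8 CPM with both compounds and 28.2 with HMBA, against 34.0 with EPZ-5676 and 26.3 with DMSO. The DMSO pair of shNELFE was higher with HMBA, and the groups overlapped.

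Over both shRNAs NFKBIA averaged 22.9 ± 4.89 CPM with HMBA and 30.9 ± 3.34 CPM without it (SD, n = 4 each). It fell by 0.44 on the log2 scale (SE 0.12, edgeR adjusted p = 0.00523). A term for a different HMBA response in shNELFE was 0.60 (SE 0.18), with an unadjusted p of 0.0053 and an edgeR adjusted p of 0.389 over all genes. That term passed for 36 genes (0.243%) and for 0 of the 4 members tested for it, with LCN2 and SERPINA3 left out. A difference of the NFKBIA response between the shRNAs was thus not shown.

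C3 had 0.663 and 0.241 CPM in shNELFE with both compounds and with HMBA, against 0.372 with EPZ-5676 and 0.229 with DMSO. In shCTL it had 1.34 and 0.886 CPM with both compounds and with HMBA, against 0.402 with EPZ-5676 and 0.451 with DMSO. All 4 pairs were higher with HMBA, but by 0.241 against 0.229 CPM in the DMSO pair of shNELFE, and the groups overlapped.

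From 45 counts with HMBA and 23 without, the ratio of summed counts was 2.27 (95% interval 1.35 to 3.93, exact binomial, counting error only). The fitted log2 difference was 1.05 (SE 0.40, edgeR adjusted p = 0.0293). C3 reached the filter through the 2 shCTL libraries with HMBA alone (12 and 21 counts, against 4 to 7 in the libraries without HMBA), so it had to differ to be tested, and nothing is read from this call. Without a filter it did not pass (adjusted p = 0.0573). The call was also lost in DESeq2 (adjusted p = 0.144), with unscaled totals (0.0816), without shCTL EPZ-5676 replicate 2 (log2 difference 0.69, adjusted p = 0.207) and without shNELFE with both compounds replicate 2 (1.02, adjusted p = 0.0644). C3 could not be tested when either shCTL library with HMBA was left out.

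The 3 closely related chemokines, which attract neutrophils through the receptor CXCR2, were near the limit of detection and did not pass the filter. CXCL2 (ENSG00000081041, chromosome 4, 74097035 to 74099293, minus strand) had 1 count each in shNELFE with both compounds and with HMBA and 0 in both shCTL libraries with HMBA, against 7 and 7 counts in shNELFE with EPZ-5676 and with DMSO and 4 and 5 in shCTL. The groups did not overlap, and shNELFE with both compounds replicate 1 also had 1 count. The ratio of summed counts, 2 with HMBA and 23 without, was 0.101 (95% interval 0.0115 to 0.408).

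CXCL3 (ENSG00000163734, chromosome 4, 74036589 to 74038807, minus strand) had 0 and 1 counts in shNELFE with both compounds and with HMBA and 3 and 0 in shCTL, against 4 and 5 in shNELFE with EPZ-5676 and with DMSO and 3 and 3 in shCTL. The ratio was 0.310 (0.0748 to 0.972) from 4 counts with HMBA and 15 without, and in CPM the highest library with HMBA, 0.192, lay just under the lowest without it, 0.193. CXCL1 (ENSG00000163739, chromosome 4, 73869393 to 73871242, plus strand) had 5 and 2 counts in shNELFE with both compounds and with HMBA and 1 and 1 in shCTL, against 7 and 1 in shNELFE with EPZ-5676 and with DMSO and 5 and 11 in shCTL. Its groups overlapped, with a ratio of 0.435 (0.178 to 0.970) from 9 counts with HMBA and 24 without. Among the 14808 genes tested, 29.0% had all 4 libraries with HMBA below all 4 without it. Without a filter on low counts CXCL2 was called lower and CXCL1 and CXCL3 were not, in a fit whose p-values are not comparable with the main one.

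The other 4 genes did not pass for HMBA. CXCL8 (ENSG00000169429, chromosome 4, 73740506 to 73743716, plus strand), interleukin-8, had 1.55, 0.482, 1.22 and 0.517 CPM in shNELFE with both compounds and HMBA and in shCTL with both compounds and HMBA. Without HMBA it had 1.18 and 0.915 CPM in shNELFE with EPZ-5676 and DMSO and 0.804 and 1.16 CPM in shCTL. The libraries with HMBA alone were the lowest and those with both compounds the highest. The log2 difference for HMBA was -0.14 (SE 0.35, edgeR adjusted p = 0.733), and the term for a different HMBA response with EPZ-5676 was 1.5 (SE 0.64), with an unadjusted p of 0.0338 and an edgeR adjusted p of 0.405. LCN2 differed by 0.18 (SE 0.18, edgeR adjusted p = 0.401), SERPINA3 by -0.41 (SE 0.26, adjusted p = 0.172) and TNFAIP3 by 0.00083 (SE 0.11, adjusted p = 0.995). SERPINA3 passed as lower on unscaled totals alone (-0.64, adjusted p = 0.0436), a scaling that moved the median of all genes by -0.22.

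**Figure D3:**
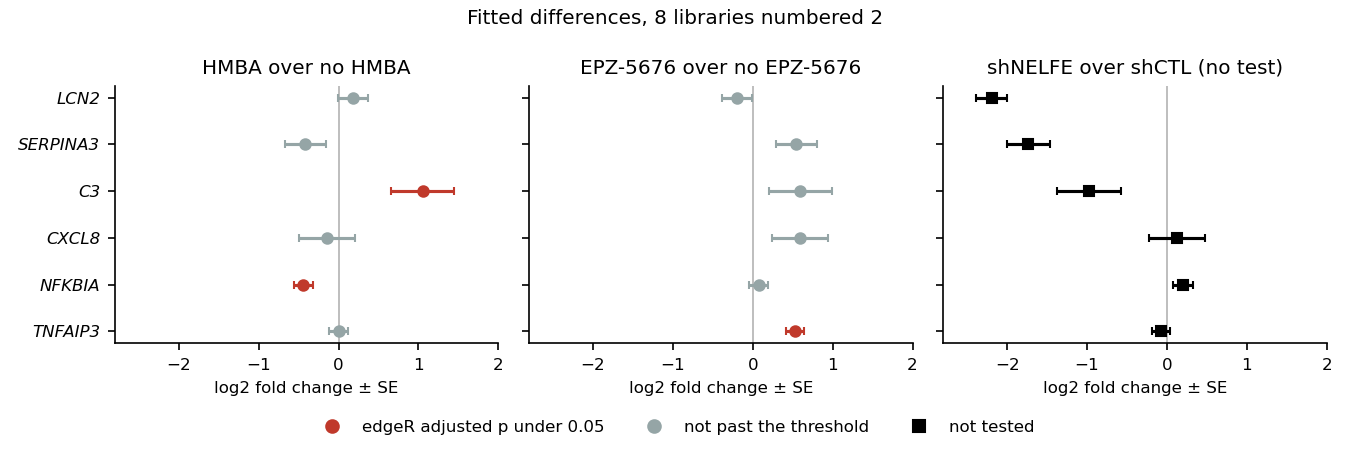
Fitted log2 fold change with its standard error (horizontal axis) for the 6 genes that passed the filter, from additive terms in the 8 libraries numbered 2. For HMBA, NFKBIA (-0.44) passes an edgeR adjusted p of 0.05, as does C3 (1.05), which reached the filter through libraries with HMBA alone, and for EPZ-5676 TNFAIP3 (0.53) does, and the shNELFE differences are shown without a test.

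The lists around these genes are set beside the 70.5% of all genes that passed for HMBA, and no difference from that share was tested. Of 45 NF-kB subunits, kinases and regulators 12 were higher and 24 lower, with a median log2 difference of -0.35. NFKB1, the precursor of the p50 subunit, fell by 1.76 (SE 0.09, edgeR adjusted p = 4.44e-10), with 14.0 ± 1.88 CPM with HMBA and 47.4 ± 2.95 CPM without it (SD, n = 4 each). The TNF receptor adaptor TRAF2 fell by 2.14, while NFKBIZ, a nuclear IkB protein that assists p50 at acute-phase and antimicrobial genes, rose by 3.34, with 19.2 ± 6.20 CPM with HMBA and 1.88 ± 0.359 CPM without it.

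Of 18 upstream cytokines and receptors tested, 7 were higher and 6 lower (median 0.07). The lymphotoxin receptor LTBR fell by 2.12 and TNFRSF1A by 1.72, and the interleukin-1 co-receptor IL1RAP rose by 2.18. Of 16 other NF-kB responsive genes tested, 4 were higher and 6 lower (median -0.33), of which 2 and 5 reached the filter on both sides. LIF, a cytokine of the interleukin-6 family, fell by 4.31, with 7.35 ± 2.95 CPM with HMBA and 146 ± 41.0 CPM without it. PLAU (urokinase) fell by 2.99 and the survival gene BCL2L1 fell by 1.84.

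In the acute-phase and complement lists the genes that passed were higher with HMBA. Of the 25 other acute-phase genes 5 could be tested, and these 5 were higher with HMBA (median 2.28). The heme-binding HPX (log2 difference 3.30, SE 0.32) had 37 to 63 counts with HMBA and 2 to 11 without it, and the iron carrier TF (2.28) had 12 to 32 counts with HMBA and 1 to 9 without it. Both reached the filter through libraries with HMBA alone, which fixes part of that count, and 3 of 3 that reached it on both sides were higher, ITIH4 (2.34) among them. Without a filter the edgeR adjusted p was 4.77e-30 for HPX and 1.02e-09 for TF, in a fit whose p-values are not comparable with the main one. There NFKBIZ for HMBA had 1.69e-112, against 6.22e-11 with the filter. Of 15 complement genes tested 10 were higher and 0 lower (median 0.67), 9 and 0 of the 12 that reached the filter on both sides, among them the membrane attack inhibitor CD59 (0.67), the C5a receptor C5AR1 (1.39) and the C3b cofactor CD46 (0.33). Beside that count of 0, 10771 of all genes had an unadjusted p under 0.05 for HMBA in edgeR. Of 13 STAT3 and C/EBP regulators 10 were higher and 3 lower (median 0.40), with JAK1 at 1.07, SOCS1 at 2.47 and CEBPG at -1.20. In a list of 5 receptors (CXCR1, CXCR2, ACKR1, SLC22A17 and LRP2) SLC22A17, a described LCN2 receptor, was the one that could be tested, and it rose by 1.04 (SE 0.14, edgeR adjusted p = 1.25e-05). All 20 genes named by rule from the lists for HMBA also passed in the 9 libraries. These hold the 8 libraries whose p-values chose the genes, so this adds no support. Of the 20, HPX, TF and SLPI had reached the filter through libraries with HMBA alone.

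Other measures moved with HMBA, but the lymphoid and colon epithelium sums overlapped between libraries with and without it. The summed level of 11 myeloid markers was 26.6 to 39.9 CPM with HMBA and 10.2 to 21.3 CPM without it, with FCGR3B at 0 in all 9 libraries, and that of 8 hepatocyte markers 1.34 to 3.09 CPM with HMBA and 0.400 to 0.603 CPM without it, with TTR at 0. That of 8 fibroblast markers was 34.6 to 53.0 CPM with HMBA and 9.84 to 30.6 CPM without it, with LUM at 0, and that of 6 endothelial markers 11.3 to 15 CPM with HMBA and 2.38 to 3.62 CPM without it, with ERG at 0. That of 8 lymphoid markers was 0.148 to 0.322 CPM with HMBA and 0 to 0.229 CPM without it, and that of 11 colon epithelium markers 4745 to 8108 CPM with HMBA and 4576 to 6131 CPM without it. The myeloid, fibroblast and endothelial sums rest on few genes, since 2 markers of each list averaged above 1 CPM. In the libraries numbered 2, CD68 averaged 21.3 CPM with HMBA and 14.4 without it. ITGAM averaged 11.4 CPM with it and 0.263 without it, and COL1A1 44.7 with it and 19.4 without it. Mitochondrial genes took 8.87% to 12.2% of counts with HMBA and 6.12% to 6.90% without it. Their part in these results was not tested.

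EPZ-5676 raised 1 of the 6 genes tested, TNFAIP3, and lowered none, while 3.80% of all genes passed (1.36% higher, 2.44% lower). TNFAIP3 (ENSG00000118503, chromosome 6, 137867188 to 137883312, plus strand) encodes A20, a ubiquitin-editing enzyme that ends NF-kB signalling. It stood at 8.69 CPM with both compounds and 8.43 with EPZ-5676, against 5.63 with HMBA and 5.83 with DMSO in shNELFE. In shCTL it stood at 8.38 CPM with both compounds and 9.05 with EPZ-5676, against 6.50 with HMBA and 6.06 with DMSO. The 4 libraries with EPZ-5676 were all above the 4 without it, as for 0.858% of all genes tested.

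TNFAIP3 averaged 8.64 ± 0.307 CPM with EPZ-5676 and 6.0 ± 0.373 CPM without it (SD, n = 4 each) and rose by 0.53 on the log2 scale (SE 0.12, edgeR adjusted p = 0.0235). In shNELFE with both compounds replicate 1, however, it stood at 4.89 CPM, below every library without EPZ-5676. With that library added the log2 difference was 0.42 (SE 0.17) and did not pass (edgeR adjusted p = 0.389), and over all genes 30 passed in place of 563. In the 8 libraries the call was also lost without shCTL DMSO (adjusted p = 0.0968), shNELFE DMSO (0.0742), shCTL EPZ-5676 (0.0736), shNELFE EPZ-5676 (0.0860), shCTL HMBA (0.0517) or shNELFE with both compounds (0.0761) replicate 2, at log2 differences of 0.50 to 0.57.

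The other 5 genes differed by -0.19 (SE 0.18) for LCN2, 0.55 (SE 0.26) for SERPINA3, 0.59 (SE 0.40) for C3, 0.59 (SE 0.35) for CXCL8 and 0.07 (SE 0.12) for NFKBIA, at edgeR adjusted p-values of 0.266 to 0.791. SERPINA3 was higher with EPZ-5676 in all 4 pairs that differ in it alone. CXCL1 had 18 counts with EPZ-5676 and 15 without it, CXCL2 had 12 with and 13 without it, and CXCL3 had 10 with and 9 without it. The term for a different EPZ-5676 response with HMBA passed for 0 of the 6 members tested in edgeR. The term with shNELFE passed for 0 of 4, as LCN2 and SERPINA3 were left out of it. These terms passed for 5 (0.0338%) and 0 of all genes, 1654 and 269 of which had an unadjusted p under 0.05. DESeq2 and limma-voom called 0 of the same members as well.

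The counts for EPZ-5676 in the lists stand beside the 3.80% of all genes that passed (1.36% higher, 2.44% lower), and no difference from it was tested. NFKBIZ rose by 0.72 (SE 0.12, edgeR adjusted p = 0.00697) and RELB, a subunit of the noncanonical NF-kB dimer, fell by 0.39 (adjusted p = 0.0310), as 1 higher and 1 lower of 45 regulators. The interleukin-6 receptor IL6R fell by 0.62 and the oncostatin receptor OSMR by 0.30, as 0 higher and 2 lower of 18 upstream genes. LIF fell by 0.58 and PLAU by 0.42, as 0 higher and 2 lower of 16 responsive genes. SERPINA1 rose by 0.65 (edgeR adjusted p = 0.0417) and CD55, which speeds decay of the C3 convertase, by 0.51 (adjusted p = 0.00322), each the 1 gene of its list to pass, among 5 and 15 tested. The SERPINA1 call was lost in all 8 fits that left out 1 library (adjusted p of 0.0591 to 0.129). Of NFKBIZ, IL6R, LIF, SERPINA1 and CD55, 0 passed in edgeR's fit of the 9 libraries, in which 30 of all genes passed.

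In the 7 libraries numbered 1 that stood apart, several of the 10 genes had other levels, here on totals scaled over all 16 libraries. LCN2 was at 0 counts in 4 of the 7 and at most 0.963 CPM, against 1.23 to 8.72 CPM in the 9. TNFAIP3 ran from 0.396 to 1.72 CPM, against 4.72 to 8.77 CPM, and CXCL8 from 0 to 0.103 CPM, against 0.468 to 1.80 CPM. NFKBIA ran from 50.5 to 104 CPM, against 17.5 to 32.8 CPM. For these 4 genes all 7 libraries lay outside the range of the 9. For CXCL2 and CXCL3 all 7 lay within it, and for C3 2 lay above it. SERPINA3 ran from 0.103 to 0.774 CPM in 4 libraries and from 62.7 to 78.7 CPM in the other 3, against 0.510 to 2.73 CPM in the 9. These 7 hold libraries of both shRNA labels and all treatments. Beside the libraries numbered 2, 5 of them go against their labels, so no comparison between groups is drawn from the 7.

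**Figure D4:**
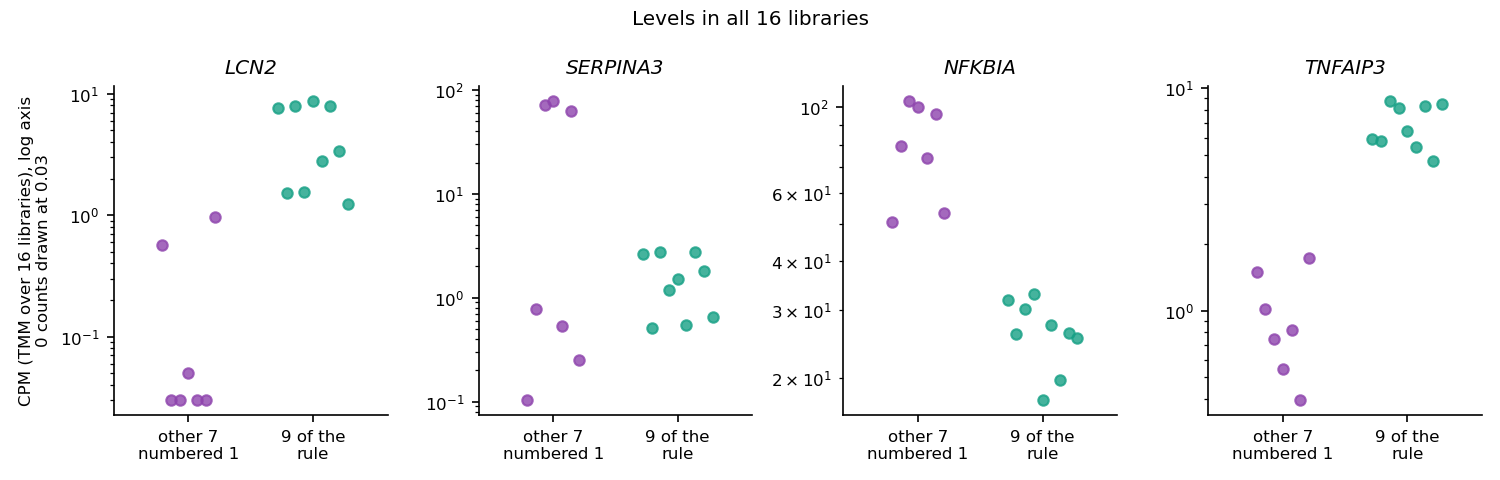
CPM (vertical axis, log scale, TMM-scaled over 16 libraries) of LCN2, SERPINA3, NFKBIA and TNFAIP3 in the 7 other libraries numbered 1 and in the 9 libraries used elsewhere, with 1 point per library and libraries at 0 counts drawn at 0.03. LCN2 and TNFAIP3 lie lower in all 7, NFKBIA higher in all 7, and SERPINA3 is split, with 3 of the 7 at 62.7 to 78.7 CPM.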

How the data were processed

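Poly(A) RNA of HCT116 cells was measured in 16 libraries, grouped by their titles. The raw counts of reads per gene, 1 table with Ensembl identifiers, were used as deposited by the authors. The tools, per the submitters' processing notes, were edgeR, HTSeq 0.6.1p1, Cufflinks 2.1.1 and STAR 2.4.0b on hg38, without a stated role for each, and for annotation and strand setting the sources used here give nothing. Per the labels' protocols the kit was a stranded poly(A) kit, and antisense or overlapping transcripts were not separated here.

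Of 60676 rows 60357 were matched to a symbol, and 58503 had a position in GENCODE release 29. The 10 genes, the lists and the choice of libraries were set with earlier results of these data known. The tests used edgeR 4.0.16 in R 4.3.3 (quasi-likelihood F-test, TMM, filterByExpr, Benjamini-Hochberg adjustment over all genes tested, threshold 0.05), on the 8 libraries numbered 2, 1 per group, with the shRNA and both compounds as additive terms. The filter asks for about 10 counts in at least 2 libraries and 15 in all. There were 14808 genes left and 4 residual degrees of freedom, or 3 once a product term was added. The SE is the log2 fold change divided by the square root of F. Levels are CPM on TMM-scaled totals, and correlations use log2 CPM with a prior count of 2. Alternatives were other scalings, no filter, DESeq2 1.42.0, limma-voom (limma 3.58.1), other sets of libraries, a block for the replicate number, and fits without each library in turn. Named list genes are the 3 with the smallest HMBA p and up to 2 with the smallest p for another effect. The genes most like LCN2 and SERPINA3 are the 5 with the highest r for each, of which 1 is not reported here. Of 250 list entries 249 were matched to the table. The scripts were first run on simulated counts with known changes.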

Additional observations from a re-analysis of the deposited data

Results flagged for a closer look

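4 values come from the 7 libraries numbered 1 that the comparisons above do not use, each above every library among the other 9 (CPM on totals scaled over 16 libraries). SERPINA3 stood at 78.7 CPM in shNELFE EPZ-5676 replicate 1, from 1584 counts, and at 72.2 CPM in shCTL EPZ-5676 and 62.7 CPM in shNELFE HMBA replicate 1, against at most 2.73 CPM in the 9. NFKBIA stood at 104 CPM in shCTL EPZ-5676 replicate 1, against at most 32.8 CPM in the 9. C3 stood at 1.49 CPM in shNELFE EPZ-5676 replicate 1, from 30 counts, against at most 1.33 CPM. SAA1 had 9 counts (0.465 CPM) in shCTL DMSO replicate 1 and 8 in shCTL with both compounds replicate 1, and 0 in the other 14 libraries. Differences of these libraries from their labels were not resolved.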

How the results depend on the processing

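NFKBIA stayed lower with HMBA, past the threshold, in all 8 fits that left out 1 library (-0.59 to -0.33) and under every scaling, filter and tool run on the 8 libraries. For HMBA 2 of the 10 genes were called (NFKBIA, and C3, which reached the filter through libraries with HMBA alone), 1 to 2 without each replicate in turn, 1 in DESeq2, and 2 in the other scalings, filter and tools, but not always the same: without a filter CXCL2 lower replaced C3, on unscaled totals SERPINA3 lower did. Unscaled totals also moved the share of calls that were higher with HMBA to 32.8%, from 49.4%, and with EPZ-5676 to 43.8%, from 35.7%. For EPZ-5676 1 gene was called, 0 to 1 without each replicate in turn and 0 in the 9 libraries. In all 16 libraries without the block, with the replicate block, with group means, and in the libraries numbered 1 only, 0 of the 10 and 0 of all genes were called for either compound. The product terms called 0 of the members tested in every setting. Genes below the filter of a setting were not tested, and the terms with the shRNA left out LCN2 and SERPINA3. The LCN2 difference for shNELFE was -1.97 in the 9 libraries, -1.81 in all 16, -1.82 with group means, -1.04 in number 1 only, and -2.45 to -2.04 without each replicate in turn. The causes were not tested.

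With the replicate block on all 16 libraries the LCN2 difference for shNELFE was -1.13. The difference of replicate 1 and 2 was correlated over 0.1 in 24 of 28 pairs of groups (r 0.065 to 0.96), so the numbers do not pair every group. Directions that turned with the replicate block were LCN2 1.07, NFKBIA -0.058 and LIF 0.020 for EPZ-5676, SERPINA3 0.013, TNFAIP3 0.066 and CD55 0.26 for shNELFE, and CXCL8 0.60 for HMBA. In all 16 without the block they were LCN2 0.21 and NFKBIA -0.12 for EPZ-5676, SERPINA3 2.13, SERPINA1 0.20 and CD55 0.23 for shNELFE, and CXCL8 0.040 for HMBA. With group means they were LCN2 0.19 and NFKBIA -0.14 for EPZ-5676, and SERPINA3 0.92, CD55 0.24 and CEBPA 0.085 for shNELFE. In number 1 only they were LCN2 2.48, NFKBIA -0.19, NFKBIZ -0.24 and IL6R 0.45 for EPZ-5676, SERPINA3 3.40, C3 0.11, TNFAIP3 0.18, RBCK1 0.053, IL1RN 1.53, SERPINA1 1.12, CD55 0.84 and CEBPA 0.081 for shNELFE, and C3 -0.50, LIF 0.28 and PLAU 1.78 for HMBA. Differences near 0 turned within the 8 and 9 libraries too. LCN2 for HMBA was -0.043 on unscaled totals, and TNFAIP3 for HMBA was -0.23 on unscaled totals, -0.011 without a filter, -0.0022 in limma-voom and -0.12 in the 9 libraries. Without each replicate in turn CXCL8 for HMBA ran from -0.43 to 0.12 and for shNELFE from -0.16 to 0.46, TNFAIP3 for HMBA from -0.029 to 0.051 and NFKBIA for EPZ-5676 from -0.072 to 0.21. CFB, IL1RN and SLPI had no adjusted p in DESeq2. MALT1, CD55 and SLPI for shNELFE and NFKBIZ and SERPINA1 for EPZ-5676 lost their call without at least 1 library. Over all genes, 353 passed for shNELFE in the 9 libraries, 0 in all 16 and 1023 to 2002 without each library in turn, in place of 1940, and for EPZ-5676 1077 passed without a filter and 210 to 604 without each library in turn, in place of 563.

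Depth limits the chemokines, C3 and SAA1, which had 0 to 27 counts in each of the 9 libraries. It also limits SERPINA3, which had 7 to 43 counts in each of them.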

Other observations

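The colon epithelium markers that check the cell label moved in both directions with HMBA. Of 8 tested, 3 were higher and 4 lower in edgeR, with a median log2 difference of -0.16, beside 70.5% of all genes that passed for HMBA. The adhesion gene CDH1 rose by 1.04, with 189 ± 20.6 CPM with HMBA and 92.6 ± 11.5 CPM without it, and the intestinal transcription factor gene CDX2 fell by 1.74, with 3.82 ± 0.371 CPM with HMBA and 12.9 ± 2.89 CPM without it (SD, n = 4 each). KRT20, a keratin of differentiated colon epithelium, rose by 0.98 with EPZ-5676 (edgeR adjusted p = 0.0121), with 4.0 ± 0.712 CPM with it and 2.04 ± 0.728 CPM without it. It was the 1 of 8 markers tested to pass for EPZ-5676, beside 3.80% of all genes. Its call was not followed in the other fits, and in the 9 libraries 30 of all genes passed in place of 563.

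Among the 6 members of the set that passed the filter, C3 and NFKBIA had the lowest correlation of log2 CPM over the 9 libraries, at r = -0.72, and LCN2 and SERPINA3 the highest. These are descriptions of 9 libraries that share treatments.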
